A study of Homo sapiens with 23 samples.

Results

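The human type II and type I keratin gene clusters were examined in peak lists of chromatin immunoprecipitation followed by sequencing (ChIP-seq) from the established cell line NCI-H23, which was derived from a non-small cell cancer of the lung. Members were all peaks whose summit lay at 52.55 to 53.36 Mb of chromosome 12 (type II, 810.0 kb) or at 38.80 to 39.79 Mb of chromosome 17 (type I, 990.0 kb), in build hg19. They numbered 3639 of 2889028 peaks, or 0.126%, with 1886 in type II and 1753 in type I. The shortest list gave 7 members and the longest 540. The labels name no genetic change made to the cells. There were 11 targets with 2 libraries each: 5 histone acetylation marks (H4K5acK8ac, H4K5ac, H4K8ac, H4K12ac, H3K27ac), 5 methylation marks (H3K4me1, H3K4me3, H3K36me3, H3K9me3, H3K27me3) and BRD2, a bromodomain protein that binds acetylated histone tails. The labels mention the BET inhibitor JQ1 and its solvent without saying which library received which, and they do not say whether the libraries of a target came from separate cultures. Read depth is unknown. With 2 libraries against 2, no exact two-sided test can give a p under 0.333, so each library's value is given and no test was made.

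Keratins are the intermediate filament proteins of epithelia. A filament is built from pairs of a type I and a type II chain, and each epithelium is marked by its own pairs: KRT8 with KRT18 in simple epithelia, KRT5 with KRT14 in basal cells, KRT1 with KRT10 in cornifying layers, and the hair keratins in the hair shaft. Most type I genes form 1 cluster and the type II genes another; KRT18 is the exception, a type I gene that lies beside KRT8 at the edge of the type II cluster. The type I cluster also holds the keratin associated proteins, which cross-link hair keratins. Among the marks, acetylation and H3K4me1 accompany active promoters and enhancers and H3K4me3 accompanies promoters. H3K36me3 accompanies transcribed gene bodies, while H3K27me3 (deposited by Polycomb) and H3K9me3 accompany silent chromatin.

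In the RefSeq gene table (GRCh38.p14, used for names and order only), the type II cluster runs from KRT80 and KRT7 through the hair keratins KRT81 to KRT86, KRT75, the KRT6 genes and KRT5, the inner root sheath genes KRT71 to KRT74, then KRT2, KRT1, KRT77, KRT76, KRT3, KRT4, KRT79 and KRT78, to KRT8 and KRT18. It holds 27 protein-coding keratin genes. The type I cluster holds 28, running from KRT222 and KRT24 over KRT10, KRT20 and KRT23 to KRT19, KRT14, KRT16 and KRT17, with 34 protein-coding keratin associated protein genes in the middle. No gene coordinates in hg19 were used. Peaks were therefore given to genes only for KRT8 and KRT18, at 53.29 to 53.35 Mb.

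Promoter sequence of the clusters could be read from RefSeq (GRCh38.p14) for 67 of these genes, in 71 entries. They were 14 of 27 type II keratins, 20 of 28 type I keratins and 33 of 34 keratin associated proteins. KRT18, KRT7, KRT19 and KRT14 were among the genes without an entry. Shown are the 250 bases before the start of 3 genes, 1 each of the simple epithelial, basal and cornifying pairs, 5′ to 3′ on the minus strand of the genome, with the letters TATAAA (either strand) in capitals. Each is the start that the table lists, and no peak was placed on it.
KRT8: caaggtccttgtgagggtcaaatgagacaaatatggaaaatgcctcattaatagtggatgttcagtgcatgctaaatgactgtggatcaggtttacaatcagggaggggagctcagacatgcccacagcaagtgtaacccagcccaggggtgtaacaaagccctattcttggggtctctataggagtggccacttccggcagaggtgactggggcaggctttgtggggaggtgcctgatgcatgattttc
KRT5: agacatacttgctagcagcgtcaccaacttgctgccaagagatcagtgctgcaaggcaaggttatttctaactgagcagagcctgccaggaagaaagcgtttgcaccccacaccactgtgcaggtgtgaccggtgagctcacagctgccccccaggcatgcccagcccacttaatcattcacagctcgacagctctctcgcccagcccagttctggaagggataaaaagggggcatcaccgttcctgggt
KRT10: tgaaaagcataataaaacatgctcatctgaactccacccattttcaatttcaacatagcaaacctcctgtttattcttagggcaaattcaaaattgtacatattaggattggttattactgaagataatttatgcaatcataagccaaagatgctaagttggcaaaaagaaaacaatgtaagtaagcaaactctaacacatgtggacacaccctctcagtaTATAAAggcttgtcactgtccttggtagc

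TATAAA was found in the KRT10 window and not in those of KRT8 and KRT5. It was present in 50 of the 71 cluster promoters (70.4%), against 10.7% of all 35116 promoters in windows of the same length. By group, it was in 29 of 33 promoters of keratin associated proteins, 15 of 23 of type I keratins and 6 of 15 of type II keratins. CCAAT was found in 53.5% of the cluster promoters and 32.0% of all, and the GC box GGGCGG in 5.63% and 42.6%. For CCAAT the groups differed, with 63.6% for keratin associated proteins, 56.5% for type I keratins and 26.7% for type II keratins. The type II share was thus below that of all promoters. The AP-1 letters TGACTCA were found in 2.82% and 4.20%. No motif is contained in another, and all were searched on both strands. The median number of CG dinucleotides was 1 in the cluster promoters and 11 in all promoters. Related genes share sequence by descent, so these shares describe the clusters and are not independent counts.

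Acetylation covered both clusters more than the genome average; for type I the excess was small or absent against chromosome 17 alone. For each list, the percentage of bases in peaks was divided by that over all 55279 genome bins of 50 kb that met a peak of any list. The ratio still depends on how much of the genome a list covers: at KRT8 and KRT18, H4K8ac covered 25.8% and 25.3% of the bases but had ratios of 7.45 and 17.7. In type II the ratio was 4.04 ± 0.0589 (SD, n = 2 here and below) for H4K5acK8ac, 5.66 ± 0.719 for H4K8ac, 2.94 ± 0.0946 for H3K27ac and 3.56 ± 0.459 for BRD2. In type I these ratios were 2.88 ± 0.475, 3.50 ± 0.607, 2.07 ± 0.831 and 1.35 ± 0.214. The type II value lay above the type I value in every pairing of libraries for these 4 targets, and also for H4K5ac (4.71 against 2.96), H4K12ac (4.69 against 2.03) and H3K4me1 (2.86 against 1.51). H3K36me3 was low in both, with ratios of 0.186 ± 0.00268 in type II and 0.0822 ± 0.00851 in type I.

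By bases in peaks, H3K4me3 and H3K27me3 lay on opposite sides of the genome average in the clusters. H3K4me3 had a ratio of 1.501 in both type II libraries, and of 0.587 and 0.599 in replicates 1 and 2 in type I. In the KRT8 and KRT18 segment alone its ratios were 12.2 and 13.1, and type II without that segment was not computed. H3K27me3 had ratios of 2.80 and 2.08 in type II and of 0.801 and 0.616 in type I. H3K9me3 was below the average in type II, at 0.679 and 0.551, and at 1.09 and 0.869 in type I. The ratios of the libraries of these marks did not overlap between clusters. In the calls of 50 kb bins given below, H3K4me3 was above the genome share in both clusters, at 41.2% and 30.0% against 25.7%. The reference chosen set the direction for 5 of the 11 targets in type I. Against chromosome 17 alone, the mean ratios there were 0.745 for H4K12ac, 0.905 for H3K27ac, 0.633 for H3K4me1 and 0.574 for BRD2, all below 1, while H3K9me3 reached 1.17. H4K5acK8ac, H4K5ac and H4K8ac stayed above 1 but fell to 1.22, 1.12 and 1.20. H3K4me3, H3K27me3 and H3K36me3 stayed below 1. Against chromosome 12 alone, no type II ratio changed sides.

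**Figure D1:**
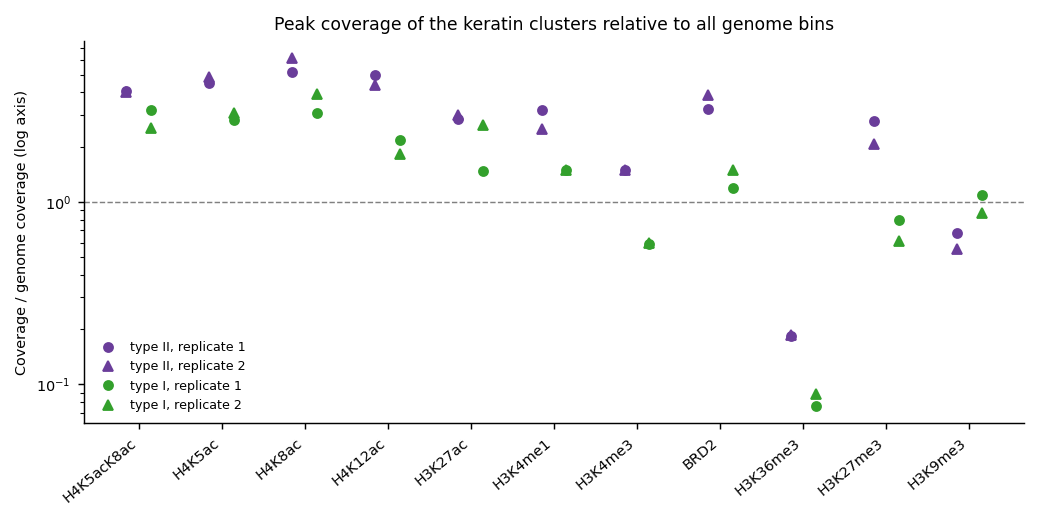
Percentage of bases in peaks in each keratin cluster divided by that over all genome bins (log axis; the dashed line marks 1), for 11 targets; circles and triangles are the 2 libraries. Type II lies above 1 for all targets but H3K36me3 and H3K9me3, while type I lies below 1 for H3K4me3 and H3K27me3 as well as for H3K36me3.

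The clusters were then read in bins of 50 kb, 17 in type II and 20 in type I, the uppermost of each cut short by the cluster bound. A bin was called active when H3K27ac and H4K5acK8ac each had a peak with a −log10 q of at least 5 (q, the peak caller's corrected p) in both libraries. For H3K27me3, H3K9me3 and H3K36me3, which form broad domains, a bin was called when its coverage was at or above the 90th percentile of genome bins in both libraries. Active bins numbered 6 of 17 in type II and 10 of 20 in type I, that is 35.3% and 50.0%, against 25.2% of genome bins. Shares over bins of chromosome 12 or 17 alone were not computed. Whether these counts exceed those of their own chromosomes therefore cannot be told. H3K27me3 was called in 4 of 17 and 0 of 20 bins (genome, 8.62%), and H3K9me3 in 1 of 17 and 2 of 20 (8.66%). H3K36me3 was called in no bin of either cluster (9.68%). H3K4me3 was called in 7 of 17 and 6 of 20 bins (25.7%) and BRD2 in 2 of 17 and 1 of 20 (6.87%). Among single acetylation marks, H4K8ac was called in 5 of 17 and 4 of 20 bins (7.58%) and H4K5ac in 10 of 17 and 11 of 20 (25.9%). H4K5acK8ac was called in 8 of 17 and 11 of 20 (28.7%), H4K12ac in 7 of 17 and 7 of 20 (17.4%) and H3K27ac in 6 of 17 and 10 of 20 (29.5%). H3K4me1, the enhancer mark, was called in 9 of 17 and 9 of 20 (30.7%). All 5 acetylation marks were called in 4 of 17 and 3 of 20 bins (6.87%), and H3K4me3 without H3K27ac in 3 of 17 and 2 of 20 (5.79%).

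**Figure D2:**
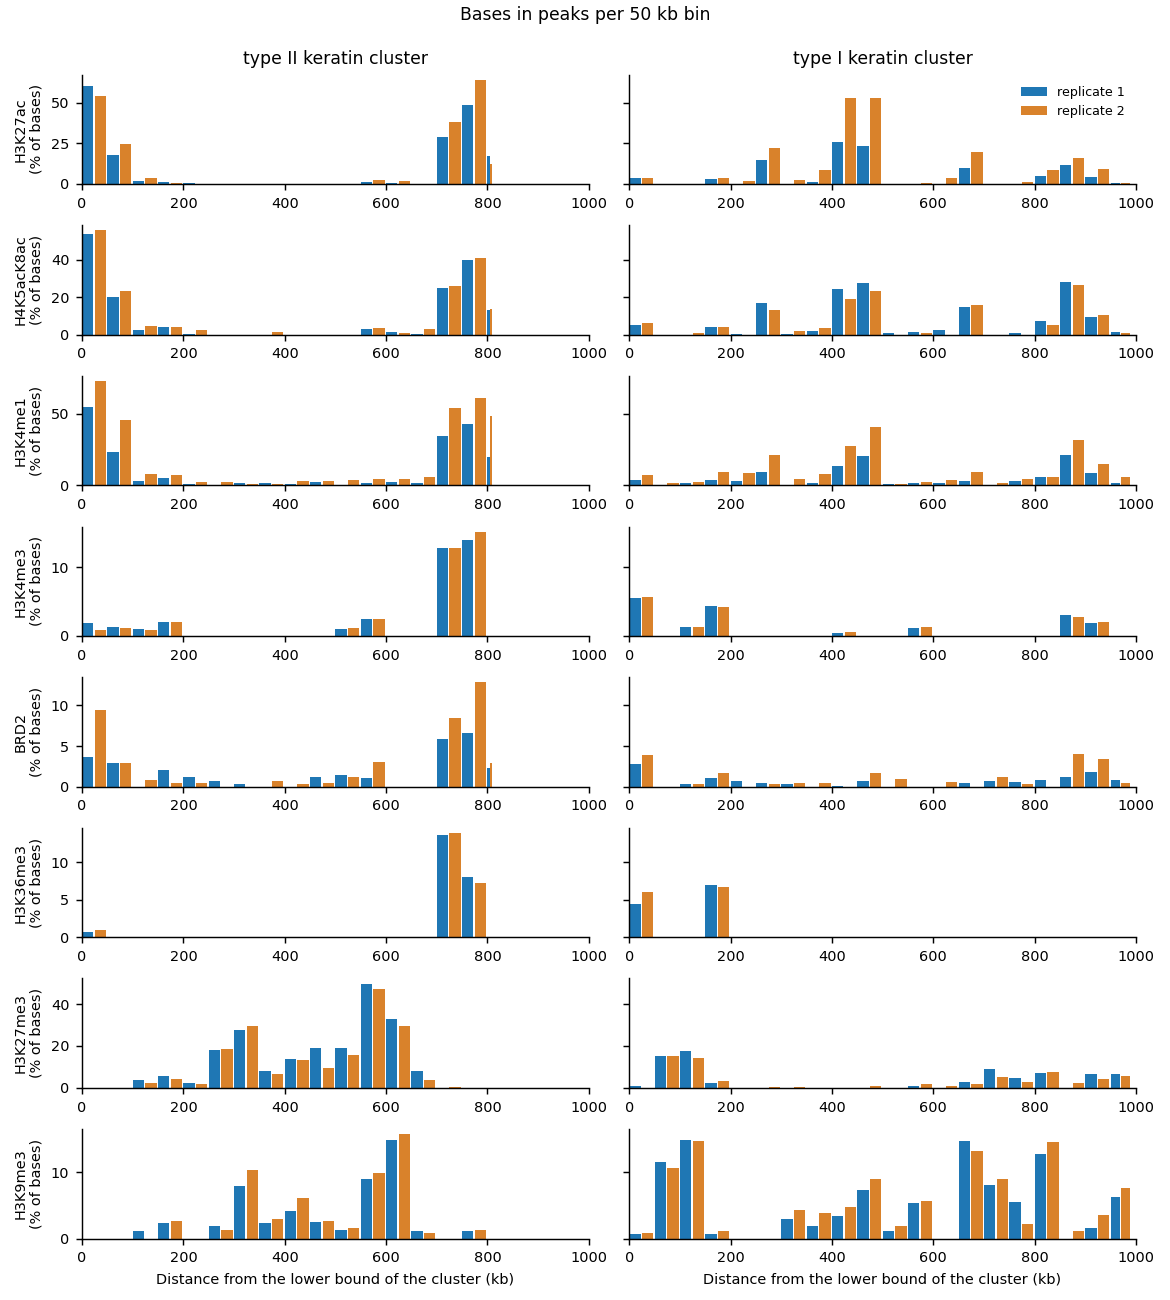
Percentage of bases in peaks per 50 kb bin (y axis) along each cluster (x axis, distance from its lower bound in kb) for 8 targets; blue and orange bars are replicates 1 and 2. In type II, H3K27ac is highest at the ends, and H3K27me3 is uneven between them, reaching 49.8% and 47.1% in 1 bin that is also called active. Type I shows several separate active bins.

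In type II, 5 of the 6 active bins lay at the ends and all 4 bins called for H3K27me3 lay between them. The active bins were 52.55 to 52.60, 52.60 to 52.65, 53.10 to 53.15, 53.25 to 53.30, 53.30 to 53.35 and 53.35 to 53.36 Mb. Between the last H3K27ac region of the lower end and the next, 467 kb (chr12:52640110-53107354) held no H3K27ac region with a −log10 q of at least 5 in both libraries. The same measure gave 386 kb for H4K5acK8ac and 680 kb for BRD2.

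The segment of KRT8 and KRT18 was densely covered by active marks. Its H3K27ac peaks covered 53.6% and 68.1% of the bases in replicates 1 and 2, which was 15.2 and 17.2 times the genome average. H4K5acK8ac covered 39.0% and 39.7% of the segment. H3K4me1 covered 48.3% and 65.6%, H3K4me3 18.3% and 19.6%, and BRD2 7.52% and 13.3%. Coverage counts peaks of any q, and in the whole BRD2 lists 64.7% and 28.1% of peaks had a −log10 q under 1.3. Of the 15 and 16 BRD2 peaks of the segment, 1 and 6 had a −log10 q of at least 5. No H3K27me3 peak had its summit there in either library, and H3K9me3 had 1 peak in each, with a −log10 q of 1.96 and 5.07.

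Within this segment the marks formed 3 places. At its lower end, chr12:53295113-53299304 was the strongest H3K4me3 region of the type II cluster, with a −log10 q of 651 and 686 and 83.1-fold and 93.1-fold enrichment over local background (the authors' values, as are all fold and q values below). At the upper end, chr12:53341757-53347807 was a 6051 bp H3K4me3 region with a −log10 q of 651 and 645, overlapped by H3K27ac peaks of 361 and 438. Between them, chr12:53318528-53320339 was poor in H3K4me3 (3.81-fold and 4.19-fold) but lay in the H3K27ac region of the cluster with the highest mean rank, chr12:53314247-53323100, with a −log10 q of 355 and 613 and 50.3-fold and 70.9-fold enrichment. A BRD2 region lay at this middle place, chr12:53318493-53320523, with 4.74-fold and 8.66-fold enrichment. It was 1 of 2 BRD2 regions in type II whose −log10 q was at least 5 in both libraries.

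H3K36me3 had 3 and 5 peaks in type II, and 2 and 4 of them had their summit in this segment. They covered 17.4% and 16.7% of the segment, 2.31 and 2.30 times the genome average. The strongest region, chr12:53343733-53347733, had a −log10 q of 52.1 and 52.5 and lay within the upper H3K4me3 region. Below the KRT8 and KRT18 segment, H3K4me3 also marked chr12:53267339-53268610 (−log10 q of 403 and 412) and chr12:53272862-53274022 (201 and 192). Both places carried peaks of all 10 acetylation lists.

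The lower end of type II, 52.55 to 52.65 Mb, was chosen for comparison after its values were seen. In RefSeq order KRT80 and KRT7 are the first keratin genes at this side, and KRT7 is another simple epithelial keratin; whether the peaks belong to them was not examined. H4K5acK8ac coverage resembled that of the KRT8 and KRT18 segment, at 37.0% and 39.5%. H3K27ac covered 39.0% and 39.3%, less than both libraries showed at KRT8 and KRT18. H4K8ac went the other way, with 48.7% and 30.5% against 25.8% and 25.3%.

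H3K4me3 and H3K36me3 were both lower at the lower end. There H3K4me3 covered 1.58% and 1.00% of the bases, against 18.3% and 19.6% at KRT8 and KRT18, and H3K36me3 covered 0.381% and 0.481%. Its H3K4me3 regions were weak: chr12:52585103-52586026 had 2.60-fold and 3.90-fold enrichment and chr12:52638009-52638664 had 4.56-fold and 4.83-fold. The overlapping H3K27ac peaks were strong nonetheless, with a −log10 q of 300.4 and 424 at the first place and of 211 and 338 at the second. The second place was also the strongest BRD2 region of type II (chr12:52637432-52638694, 8.90-fold and 13.1-fold) and its strongest H4K5acK8ac region (42.6-fold and 47.4-fold). No H3K27me3 or H3K9me3 coverage was found at this end in either library.

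**Figure D3:**
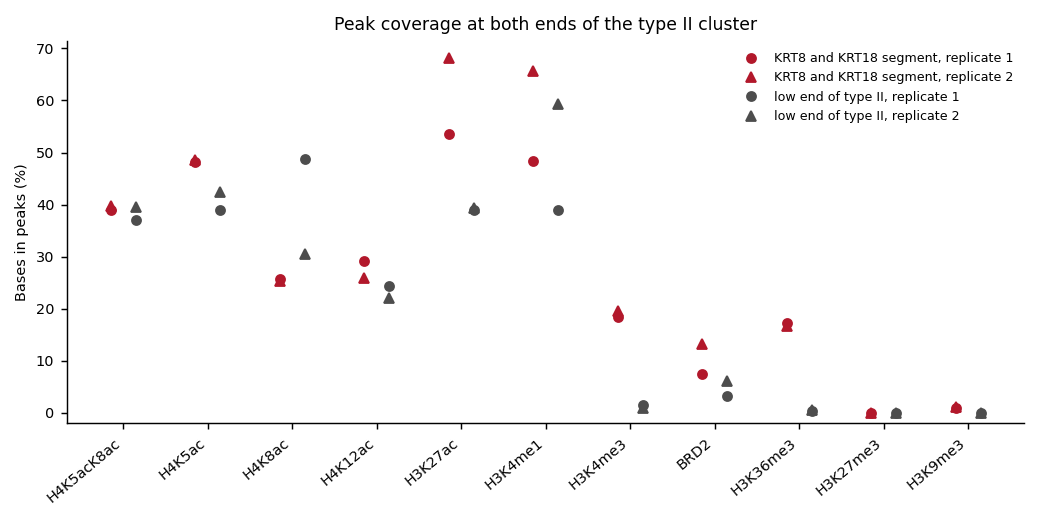
Percentage of bases in peaks (y axis) for 11 targets in the KRT8 and KRT18 segment (red) and at the lower end of the type II cluster (grey); circles and triangles are replicates 1 and 2. H4K5acK8ac lies close together at 37.0% to 39.7%, while H3K4me3 and H3K36me3 exceed 16% at KRT8 and KRT18 and stay under 2% at the lower end.

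The middle of type II, 52.80 to 53.25 Mb, was richer in H3K27me3 than the genome, unevenly. Its coverage was 21.8% and 19.3%, 4.75 and 3.56 times the genome average. Of its 9 bins, 4 were called: 52.80 to 52.85, 52.85 to 52.90, 53.10 to 53.15 and 53.15 to 53.20 Mb. The bin of 53.10 to 53.15 Mb had the highest coverage, 49.8% and 47.1%, above 99.6% and 99.3% of genome bins. The bin of 53.20 to 53.25 Mb had the lowest of the middle in replicates 1 and 2, 8.13% and 3.85%. A stretch of 87.2 kb (chr12:52904609-52991844) held no H3K27me3 region with a −log10 q of at least 5 in both libraries. The acetylation marks differed from each other here. H3K27ac covered 0.213% and 0.497% of the bases and H4K5acK8ac 0.571% and 0.930%, both below the genome average. H4K5ac was nearer to that average, at 0.752 and 0.951 times, and H4K12ac lay on either side of it, at 1.63 and 0.937 times. For H4K8ac, 114 and 44 peaks covered 9.49% and 2.64% of the middle, 2.74 and 1.85 times the genome average, but none in replicate 2 reached a −log10 q of 5. H3K36me3 had no peak.

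H3K9me3 met H3K27me3 within this middle. The strongest H3K27me3 region of type II, chr12:53148157-53156567, had 10.2-fold and 8.84-fold enrichment. The strongest H3K9me3 region, chr12:53150247-53156560, lay inside it with 10.5-fold and 11.3-fold enrichment. Over the 4 pairings of libraries, 75.7% to 82.2% of the type II bases in H3K9me3 peaks were also in H3K27me3 peaks, and 18.1% to 24.9% of those in H3K27me3 peaks were in H3K9me3 peaks. In type I the same shares were 32.4% to 42.9% and 52.3% to 57.6%. These shares were not computed over the genome, so whether the overlap is particular to the clusters cannot be told. In bases, H3K27me3 covered more of type II than H3K9me3 did, and H3K9me3 more of type I than H3K27me3 did. The bin of 53.15 to 53.20 Mb was the 1 bin called for both marks in either cluster, against 1.78% of genome bins.

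An H3K4me3 region with H4 acetylation and a weaker H3K27ac peak stood among the H3K27me3 bins. At chr12:53107455-53108703 H3K4me3 had 76.7-fold and 83.6-fold enrichment (−log10 q of 593 and 598), near the values of the lower H3K4me3 region at KRT8 and KRT18. H3K27ac reached 4.59-fold and 7.89-fold there, against 22.1-fold and 31.2-fold at that other region. H4K5acK8ac differed less between these places, with 10.1-fold and 18.5-fold enrichment here and 10.3-fold and 15.3-fold there. All 10 acetylation lists overlapped the region. H3K27me3 itself overlapped the region in replicate 2 alone, with a −log10 q of 2.04. BRD2 overlapped it with a −log10 q of 0.345 and 8.23. The bin that holds it was the 1 bin of either cluster called both active and for H3K27me3, against 0.282% of genome bins.

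Over both clusters 19 H3K4me3 regions were found in both libraries, 11 in type II and 8 in type I. Of these, 14 (73.7%) overlapped peaks of all 10 acetylation lists, against 51.5% of the 20499 such regions in the genome, and none lacked an overlap with any acetylation list (genome, 5.48%). H3K27ac overlapped 14 in both libraries (73.7%; genome, 77.5%) and BRD2 11 (57.9%; genome, 50.6%). Peaks of any q counted for these overlaps, in the clusters and in the genome. H3K27me3 overlapped 2 (10.5%; genome, 8.62%), and H3K9me3 none (genome, 2.78%). With 19 regions, 1 region is worth over 5 percentage points. The 2 with H3K27me3 were chr12:52701802-52702847, where H3K4me3 had 43.5-fold and 50.5-fold enrichment and H3K27ac only 3.70-fold and 3.11-fold, and chr12:53084810-53085411, with 7.54-fold and 6.04-fold and no H3K27ac peak. Regions strong in H3K4me3 included some strong and some weak in H3K27ac. The 2 strongest of type I had H3K27ac peaks of −log10 q of 405 and 549 and of 207 and 169. At chr17:38935648-38936330, for example, H3K4me3 had 18.2-fold and 24.7-fold enrichment and no H3K27ac peak overlapped it.

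**Figure D4:**
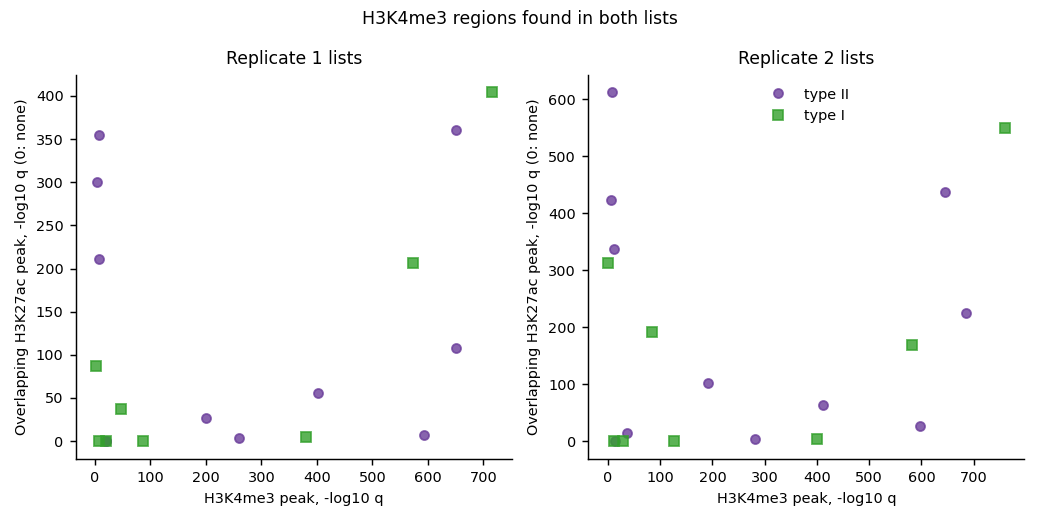
H3K4me3 −log10 q of the 19 regions found in both libraries (x axis) against the −log10 q of the strongest overlapping H3K27ac peak (y axis; 0 where none overlaps), with replicate 1 lists left and replicate 2 lists right; circles are type II and squares type I. Points near the left edge reach 355 and 613 on the y axis, while 1 type II region with an x of 593 and 598 reaches only 7.36 and 25.8.

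Type I was active in separate places. The called bins were 38.80 to 38.85, 38.95 to 39.00, 39.05 to 39.10, 39.15 to 39.30 (3 bins), 39.45 to 39.50 and 39.60 to 39.75 Mb (3 bins). At the lower border, chr17:38802857-38805297 was the strongest H3K4me3 region of either cluster (−log10 q of 716 and 759). It also held the strongest BRD2 region, chr17:38803504-38805011, with 16.3-fold and 27.3-fold enrichment. This was the sole BRD2 region of type I with a −log10 q of at least 5 in both libraries. It lies near the bound of the interval and was not assigned to a gene.

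The block of 39.20 to 39.30 Mb was acetylated, with little H3K4me3 or BRD2. H3K27ac covered 24.7% and 53.1% of it, a spread of over 2 times between the libraries, and H4K5acK8ac 26.1% and 21.2%. H3K4me1 covered 16.9% and 34.2%. One H3K4me3 region was called, with 2.76-fold and 2.26-fold enrichment, and BRD2 had 2 and 4 peaks, none with a −log10 q of 5. At the KRT8 and KRT18 segment BRD2 covered 14.4 and 20.0 times its genome average, and here 0.651 and 1.28 times. All 5 acetylation marks were also lower here than at that segment, in both libraries. H4K12ac covered 4.05 and 2.87 times its genome average here and 16.7 and 16.5 times there. For H4K5acK8ac the ratios were 11.2 and 8.18 here and 16.8 and 15.3 there. H3K9me3 covered 5.34% and 6.91% of the bases of the same block, near its genome average (1.18 and 1.11 times), and was called in neither bin. Active bins without H3K4me3 numbered 6 of 20 in type I and 2 of 17 in type II, against 5.73% of genome bins. Of the 2 in type II, 53.35 to 53.36 Mb was the bin cut short by the cluster bound. The other, 52.55 to 52.60 Mb, held an H3K4me3 region whose −log10 q of 3.01 and 6.36 missed the minimum in replicate 1.

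The 3 upper active bins of type I, 39.60 to 39.75 Mb, held 2 H3K4me3 regions. At chr17:39683402-39684903 H3K4me3 had 56.3-fold and 63.1-fold enrichment but H3K27ac only 3.88-fold and 3.31-fold. At chr17:39704692-39705708 H3K4me3 had 11.7-fold and 18.7-fold enrichment, with H3K27ac at 11.01-fold and 28.4-fold and BRD2 at 3.59-fold and 9.14-fold. KRT15, KRT19 and KRT14 lie toward this end in RefSeq order, and no peak was assigned to them. H3K27ac covered 6.92% and 11.3% of these bins, against 39.0% and 39.3% at the lower end of type II. H3K36me3 had no peak in them.

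Silent marks in type I included both H3K27me3 and H3K9me3, although H3K27me3 was called in no bin. From 38.85 to 38.95 Mb, H3K27me3 covered 16.3% and 14.8% and H3K9me3 13.2% and 12.7%, with no H3K27ac peak in either library. The H3K4me3 region chr17:38935648-38936330 also lay there, with 18.2-fold and 24.7-fold enrichment. In this stretch lay the strongest H3K27me3 region of type I (chr17:38896854-38899284, 6.88-fold and 7.72-fold) and its strongest H3K9me3 region by rank (chr17:38917125-38919269, 7.89-fold and 8.65-fold). H3K9me3 was called in the bins of 38.90 to 38.95 and 39.60 to 39.65 Mb. The second of these was also active. The 4 H3K36me3 regions of type I found in both libraries lay within chr17:38972867-38992586, the strongest being chr17:38972867-38974428 with 5.30-fold and 6.68-fold enrichment.

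How well the libraries matched differed by target. All 8 type I H3K4me3 peaks of each library lay in regions found in both. For BRD2 in type I the shares were 16.7% and 12.5%, and in type II 36.4% and 35.6%. For H3K27me3 they lay between 60.0% and 65.9% over both clusters. For H3K27ac in type I they were 90.6% of replicate 1 and 37.6% of replicate 2, which had 93 peaks against 53. These shares were not computed over the genome, so they are not shown to be particular to the clusters. BRD2 calls depended on 1 library: with replicate 2 alone, 29.4% of type II bins and 15.0% of type I bins were called, against 11.8% and 5% with both. H3K9me3 in type I did so too, with 20.0% of bins called from replicate 1 alone and 10.0% with both. H3K27me3 in type I was called in 5% of bins from replicate 1 alone and in none with both.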

How the data were processed

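Peak lists of 22 libraries were used as deposited by the authors, 1 per library; the input library was not used here. Reads were aligned with BWA to hg19 and peaks called with MACS2, per the submitters' processing notes; settings and control are not given in the sources used here. In the deposited lists each peak has a fold enrichment, a linear ratio to local background, −log10 p and −log10 q, and a summit offset; the deposited score, the whole part of 10 times −log10 p, was not used. These values describe or rank peaks within a list. Lists are longer in deeper libraries, and depth is unknown.

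Bins of 50 kb started at position 0 and overlaps needed 1 bp. Regions of both libraries are unions of overlapping peaks. Python 3.11.15, numpy 2.4.6, pandas 2.3.3 and matplotlib 3.10.9 were used, with functions tested on simulated lists. The rule named, in each cluster, the region of each target with the highest mean rank by −log10 q, all active bins, and runs of bins called for H3K27me3 or H3K9me3. Other H3K4me3 regions and the stretches of several bins, apart from the KRT8 and KRT18 segment, were chosen after their values were seen. The members and lists were chosen with earlier results of these data known. The planned counts of genes near H3K4me3 were not made, for want of gene coordinates in hg19. Alternatives varied the q minimum, percentile, bin size, reference and libraries.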

Additional observations from a re-analysis of the deposited data

Results flagged for a closer look

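Coverage relative to the genome lay on opposite sides of 1 in the clusters, in both libraries of each target, for 2 targets. H3K4me3 had a mean ratio of 1.501 in type II and 0.593 in type I. Within type II it was concentrated in the KRT8 and KRT18 segment, with ratios of 12.2 and 13.1 in replicates 1 and 2. The ratios were 1.05 and 0.669 at the lower end and 0.261 and 0.268 in the middle. The type II ratio without that segment was not computed, so the H3K4me3 contrast is not shown to hold for the rest of the cluster. H3K27me3 had mean ratios of 2.44 in type II and 0.708 in type I. The differences between the clusters were not tested.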

How the results depend on the processing

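Of 228 values under alternatives, 141 stayed within 1.5 times the reported share or count, or within 1 SD of the reported ratio, 80 moved by more and 7 changed sides. For ratios, leaving out a replicate cannot move the value by over 1 SD, because the SD comes from the same libraries. Those values counted as staying by construction unless they changed sides, so they do not show stability. The 7 were in type I: H4K12ac (0.745), H3K27ac (0.905), H3K4me1 (0.633), BRD2 (0.574) and H3K9me3 (1.17) against chromosome 17 alone, and H3K9me3 with peaks of −log10 q of at least 5 (1.23) or without replicate 2 (1.09, against 0.869 without replicate 1). Against chromosome 17, 4 targets were above 1 in both libraries, instead of 7; leaving out a replicate gave 7 to 8. The causes were not tested, except that longer bins hold more peaks by construction.

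Shares of bins are given for type II, then type I. The shares of genome bins were not recomputed under these alternatives, here or below. Whether a cluster stayed above or below the genome under them therefore cannot be read from these values. With the 10000 strongest peaks of each list, active bins were 17.6% and 10.0%, H3K4me3 17.6% and 10.0%, and BRD2 23.5% and 10.0%. In bins of 100 kb these were 55.6% and 80.0%, 66.7% and 50.0%, and 22.2% and 10.0%, and H3K9me3 was 0% in each. In bins of 25 kb, H3K4me3 was 27.3% and 15.0%, BRD2 6.06% and 2.5%, H3K27me3 15.2% and 5%, and H3K9me3 3.03% in type II. BRD2 was 35.3% and 25% at a −log10 q of at least 1.3, and 5.88% in type II at 10. At the 75th percentile H3K27me3 was 47.1% and 15.0%, H3K9me3 17.6% and 35.0%, and H3K36me3 11.8% and 10.0%. At the 95th percentile H3K9me3 was 0% in each. With 1 peak of −log10 q of at least 5, H3K27me3 was 41.2% and 25%, H3K9me3 35.3% and 55.0%, and H3K36me3 11.8% and 5%.

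Leaving out a replicate gave 35.3% to 41.2% and 50.0% for active bins, 41.2% to 47.1% and 30.0% for H3K4me3, 11.8% to 29.4% and 5% to 15.0% for BRD2, 23.5% to 35.3% and 0% to 5% for H3K27me3, and 5.88% and 10.0% to 20.0% for H3K9me3. Whole bins only, an alternative chosen after seeing the data, changed none of the shares of bins for active, H3K4me3, BRD2, H3K27me3, H3K9me3 and H3K36me3 by over 1.5 times. No paired analysis was possible because the results come from no test.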
